A study of Mus musculus with 96 samples.

Results

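Voltage-gated sodium and calcium channels are described here by the expression of their genes in mouse brain. A gene was included when its symbol starts with Cacn, or with Scn followed by a digit and ends in a or b, and when both annotation tables of the arrays gave that symbol alone to the same transcript cluster, the probe set that measures a gene on these arrays. This left 33 genes, with 49 transcript clusters, of 18558 genes with such a cluster and 28310 clusters in all. Where a gene had several clusters, the cluster with the highest mean was used. Levels of different genes are not set against each other, because each cluster has its own probes.

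The RNA came from 16 male mice of 14 weeks, of which 8 were NOD/ShiLtJ (NOD) and 8 were C57BL/6J (B6), both inbred strains. In each strain 4 mice had received clozapine, an atypical antipsychotic drug, at 4 mg/kg by intraperitoneal injection, and 4 had received vehicle, with tissue taken 3 h later. The cerebellum was removed from every brain. In each mouse, 1 hemisphere was divided into hindbrain and forebrain, and the other was kept intact, called whole brain, which gave 48 RNA samples, 16 per region. Each RNA was hybridised to Affymetrix Gene 1.1ST arrays, which give the values below, and again to 1.0ST arrays, which repeat the measurement of the same RNA and add no animals. Values are normalised log2 signals, differences are fitted log2 differences with their standard error (SE), and a gene was called differentially expressed at a false discovery rate (FDR) below 0.05.

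Sodium channels open on depolarisation and carry the rising phase of the action potential. Each is built on a large α subunit, encoded by Scn genes ending in a, with auxiliary β subunits, encoded by those ending in b, that adjust gating and cell-surface expression. Calcium channels turn depolarisation into calcium entry, which triggers transmitter release at presynaptic terminals (the P/Q, N and R types), drives gene expression from the soma and dendrites (the L type) or produces low-threshold bursts (the T type). Their pore-forming α1 subunits are served by β and α2δ subunits, which govern how many channels reach the membrane. The γ family, Cacng genes, includes the skeletal muscle subunit Cacng1 and the transmembrane AMPA receptor regulatory proteins (TARPs), which serve glutamate receptors rather than calcium channels.

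Of the channel genes, 25 had an entry in the RefSeq promoter table (GRCm38.p6). The 250 bases before the annotated start are shown for Scn9a and Cacna2d2, with the largest increases in hindbrain over forebrain, and for Cacng8. Cacng8 was among the genes with the largest decreases. Capitals mark a GC box, GGGCGG on either strand (CCGCCC on the other).
Scn9a, chr2:66634963-66635212, minus strand: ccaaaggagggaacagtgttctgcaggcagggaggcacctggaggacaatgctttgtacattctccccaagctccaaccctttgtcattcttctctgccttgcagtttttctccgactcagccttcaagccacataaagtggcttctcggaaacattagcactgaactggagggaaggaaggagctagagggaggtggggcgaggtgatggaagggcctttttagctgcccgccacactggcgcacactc
Cacna2d2, chr9:107399630-107399879, plus strand: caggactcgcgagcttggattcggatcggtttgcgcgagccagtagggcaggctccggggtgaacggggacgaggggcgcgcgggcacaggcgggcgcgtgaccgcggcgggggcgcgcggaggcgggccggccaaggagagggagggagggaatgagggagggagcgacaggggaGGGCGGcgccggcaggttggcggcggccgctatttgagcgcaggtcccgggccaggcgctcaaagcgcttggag
Cacng8, chr7:3393792-3394041, plus strand: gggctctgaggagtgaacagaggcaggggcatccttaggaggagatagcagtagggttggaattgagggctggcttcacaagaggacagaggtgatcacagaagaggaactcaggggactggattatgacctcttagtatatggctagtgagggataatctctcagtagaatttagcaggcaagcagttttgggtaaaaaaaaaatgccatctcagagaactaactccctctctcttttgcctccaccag
The Cacna2d2 stretch was 74.4% G or C and held 1 GC box, while those of Scn9a (54.4%) and Cacng8 (48%) held 0. Over the table, 32.7% of 32851 entries held a GC box in these 250 bases, against 36.4% (12 of 33) of the entries of the channel genes. A GC box stood in an entry of 2 of 4 genes that were higher in hindbrain than in forebrain, 6 of 14 that were lower and 4 of 7 that were not called. The letters TATAAA were found in 1 of the channel gene entries and in 12.4% of all entries. These are letter matches only.

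The tissues were checked against marker lists. All 5 markers of telencephalic neurons were lower in hindbrain than in forebrain (median log2 difference -2.50), and their mean per sample was 5.95 to 7.64 in hindbrain, against 8.08 to 9.16 in whole brain and 8.91 to 9.38 in forebrain. All 7 brainstem neuron markers were higher in hindbrain (median 2.01), and so were all 6 thalamic markers (median 1.21). Whether the signal of the thalamic markers in hindbrain came from thalamic tissue was not tested. Also lower in hindbrain were all 4 striatal markers (median -1.47), all 4 olfactory bulb markers (median -0.69), 4 of 5 choroid plexus markers (median -1.12, with 1 higher) and 4 of 5 microglial markers (median -0.17), whereas 4 of 5 astrocyte markers were higher (median 0.35, with 1 lower). The part of these markers in the channel gene differences was not tested. Although the cerebellum was removed, the mean of 6 cerebellar markers exceeded 8 in 4 hindbrain samples (8.84 to 9.69), all 4 from clozapine mice (3 NOD, 1 B6), while it was 6.24 to 7.57 in the other 12. In whole brain it was 6.23 to 7.82, highest in B6 vehicle mouse BB708. In forebrain it was 6.04 to 7.07, highest in NOD clozapine mouse DD678. The whole brain of NOD mouse DD656 also stood apart, with a thalamic marker mean of 9.68 and the lowest telencephalic mean of its region, 8.08. In such bulk tissue, fewer cells of a type and less RNA per cell cannot be told apart.

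Most channel genes differed between hindbrain and forebrain, and more of them were lower than higher. In hindbrain 6 genes were higher (18.2% of the 33, against 27.5% of all transcripts) and 18 were lower (54.5%, against 19.7%), while 9 were not called. Their median log2 difference was -0.17, against 0.02 over all transcripts. The higher genes were Scn9a, Cacna2d2, Cacna2d4, Scn1a, Scn7a and Cacna1g. Among the lower genes, the largest differences were those of Cacng3, Cacnb1, Cacng8, Cacna1e, Cacna1i and Cacna2d3, each lower by more than 1.5-fold. With 1.0ST arrays 4 were higher and 15 lower, 18 were called on both formats in the same direction and 0 in opposite directions. Shares of all transcripts, here and below, are those of the 1.1ST arrays. Counts on the 1.0ST arrays have no such share beside them. Fitted differences of the genes with large changes were closer to 0 on that format (Cacng3 at -0.76, Cacna2d2 at 0.34), while the differences of means there (-1.37 and 0.75 for these genes) were near those of the 1.1ST arrays (-1.44 and 0.82). Without the 4 hindbrain samples with high cerebellar markers, 6 were higher and 17 lower.

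**Figure D1:**
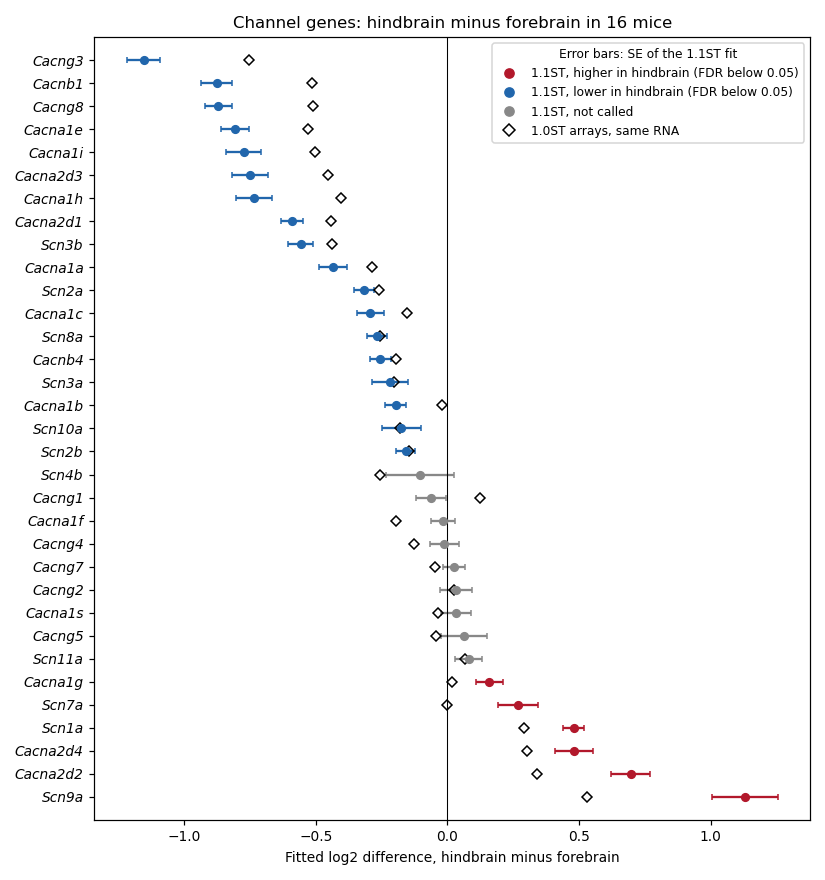
Fitted hindbrain minus forebrain difference (log2, x axis) of the 33 channel genes with its SE, coloured by call on the 1.1ST arrays, with the 1.0ST difference as an open diamond. The points run from -1.15 for Cacng3 to 1.13 for Scn9a, with 18 genes called lower and 6 called higher.

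Presynaptic and T-type pore subunits were mostly lower in hindbrain. All 3 genes of the P/Q, N and R types fell: Cacna1e, the R-type α1 subunit, Cacna1a, the P/Q-type α1 subunit that supplies most release at central synapses, and Cacna1b, the N-type α1 subunit. For Cacna1e the hindbrain samples lay between 9.20 and 10.21 with a median of 9.65, against 9.99 to 10.73 (median 10.43) in whole brain and 10.39 to 10.89 (median 10.75) in forebrain (n = 16 each). All 16 hindbrain samples were below all 16 forebrain samples. Its fitted difference was -0.81 (SE 0.05, FDR 2.1e-16), a 1.75-fold lower level. Cacna1a fell by 0.43 (SE 0.05, FDR 2.35e-09) and Cacna1b by 0.20 (SE 0.04, FDR 3.57e-05).

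The T-type subunits, which open near resting potential and support burst firing in thalamic neurons, did not move together. Cacna1i, a T-type subunit known from the thalamic reticular nucleus, was between 7.53 and 8.31 with a median of 7.98 in hindbrain, against 8.24 to 8.96 (median 8.73) in whole brain and 8.40 to 9.13 (median 8.88) in forebrain. No hindbrain sample reached the lowest forebrain sample, and the difference was -0.77 (SE 0.07, FDR 2.95e-13). Cacna1h, another T-type subunit, fell by 0.73 (SE 0.07, FDR 2.21e-12), with 6.81 to 7.71 in hindbrain against 7.86 to 8.72 in forebrain. Cacna1g, the T-type subunit of thalamic relay neurons, went the other way. It lay between 8.71 and 9.50 (median 8.98) in hindbrain, against 8.66 to 9.27 (median 8.92) in whole brain and 8.49 to 9.00 (median 8.82) in forebrain, with overlapping groups. Its difference was 0.16 (SE 0.05, FDR 0.005), higher in 12 of 16 mice, but on the 1.0ST arrays it was 0.02 (FDR 0.565). It was not called without NOD mouse DD676 (0.035, FDR 0.429). In NOD mice alone it was 0.07 (FDR 0.151) and in B6 mice alone 0.32 (FDR 0.000115). The test of that difference between strains was not called (-0.21, FDR 0.126), but on the 1.0ST arrays it was called (-0.23, FDR 0.0142). The thalamic markers moved with region as given above, and their part in the Cacna1g difference was not tested.

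Of the 3 L-type subunits, Cacna1c, the main L-type pore of neurons and heart, fell by 0.29 (SE 0.05, FDR 3.8e-06). The skeletal muscle subunit Cacna1s (0.03, FDR 0.296) and the retinal subunit Cacna1f (-0.02, FDR 0.355) were not called. Cacna1f had a mean of at most 5 over all samples, as did Scn10a and Scn11a, and the remaining 30 genes lay above it. Cacna1d, the other neuronal L-type subunit, was named in only 1 of the tables, that of the 1.0ST arrays, and is not among the 33. Its mean there was 9.50 in hindbrain, 9.77 in whole brain and 9.94 in forebrain, with a difference of -0.18 (SE 0.06, FDR 0.0234). Also named in 1 table were the β subunit Cacnb2 (1.0ST, -0.08, FDR 0.304) and Cacng6 (1.1ST, -0.29, SE 0.08, FDR 0.000854).

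The α2δ subunits, which carry the pore subunits to the membrane and include binding targets of gabapentin, split evenly, with 2 higher and 2 lower in hindbrain. Cacna2d2, whose loss causes the ducky mouse phenotype of ataxia and absence seizures, was between 9.19 and 9.59 with a median of 9.49 in hindbrain, against 8.75 to 9.48 (median 9.01) in whole brain and 8.10 to 9.04 (median 8.66) in forebrain. The hindbrain and forebrain samples did not overlap, and the difference was 0.70 (SE 0.07, FDR 4.92e-11), or 1.62-fold. Cacna2d4, known mainly from photoreceptor terminals, was between 6.00 and 6.92 (median 6.43) in hindbrain, against 5.64 to 6.44 (median 6.01) in whole brain and 5.55 to 6.15 (median 5.78) in forebrain. Its groups overlapped, yet hindbrain exceeded forebrain in 16 of 16 mice, and the difference was 0.48 (SE 0.07, FDR 2.11e-07), or 1.40-fold.

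The other α2δ pair was lower. Cacna2d3, an α2δ subunit implicated in pain and hearing, was between 9.44 and 10.19 (median 9.60) in hindbrain, against 9.82 to 10.51 (median 10.34) in whole brain and 10.36 to 10.74 (median 10.52) in forebrain, again without overlap. Its difference was -0.75 (SE 0.07, FDR 8.46e-13), or 1.68-fold lower. Cacna2d1, a gabapentin-binding subunit, fell by 0.59 (SE 0.04, FDR 1.46e-15), and its second cluster fell by 0.66.

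Both β subunits among the 33 genes fell. Cacnb1, which is best known from the skeletal muscle channel and is also expressed in brain, was between 8.26 and 9.01 (median 8.78) in hindbrain, against 9.09 to 9.70 (median 9.57) in whole brain and 9.45 to 9.93 (median 9.74) in forebrain. All hindbrain samples were below all whole brain and all forebrain samples, and the difference from forebrain was -0.88 (SE 0.06, FDR 2.79e-16), or 1.84-fold lower. Cacnb4, the β subunit mutated in lethargic mice, fell by 0.26 (SE 0.04, FDR 4.13e-07).

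Of the 6 TARPs, 2 were lower and 4 were not called. Cacng3, a TARP of forebrain excitatory neurons, had the largest difference of any channel gene. It was between 9.29 and 10.25 (median 9.70) in hindbrain, against 10.22 to 11.06 (median 10.83) in whole brain and 10.80 to 11.33 (median 11.15) in forebrain. No hindbrain sample reached any forebrain sample, and the difference was -1.15 (SE 0.06, FDR 8.1e-19), or 2.22-fold lower. Cacng8, the TARP that is abundant in hippocampal synapses, was between 7.76 and 8.70 (median 8.32) in hindbrain, against 8.94 to 9.53 (median 9.16) in whole brain and 9.21 to 9.78 (median 9.35) in forebrain. The hindbrain samples lay below both other regions, and the difference was -0.87 (SE 0.05, FDR 2.91e-18), or 1.83-fold lower. Cacng2 (stargazin, mutated in the stargazer mouse), at 0.03 (FDR 0.316), and Cacng4, at -0.01 (FDR 0.39), were not called, nor were the TARPs Cacng5 (0.06, FDR 0.267) and Cacng7 (0.03, FDR 0.299). The Cacng4 value pooled opposite calls, with hindbrain below forebrain in NOD mice alone (-0.16, FDR 0.0131) and above it in B6 mice alone (0.25, FDR 0.00241). A second Cacng2 cluster was called higher, at 0.17. The skeletal muscle subunit Cacng1 was not called either (-0.06, FDR 0.177).

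**Figure D2:**
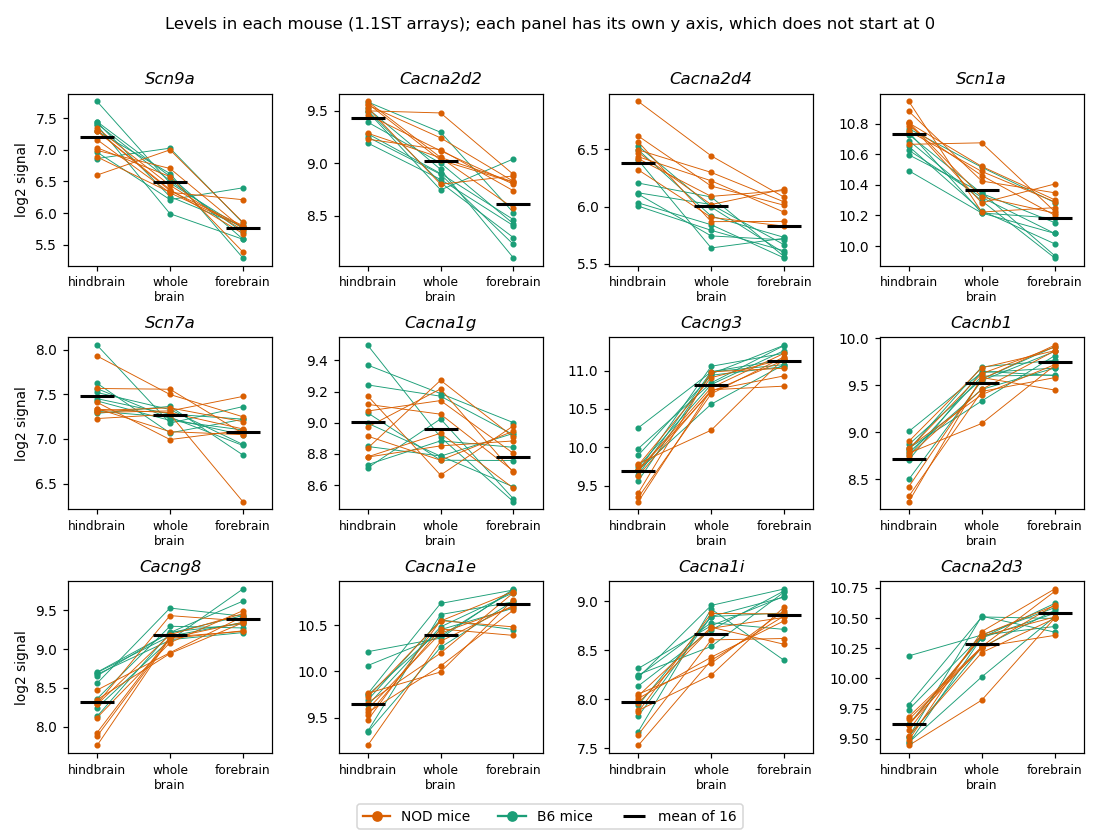
Normalised log2 signal (y axis, 1.1ST) of the 12 channel genes described by their sample values, in hindbrain, whole brain and forebrain (x axis), with 1 line per mouse (orange NOD, green B6) and a black bar at the mean of 16. Whole brain lies between the other regions on average, and the hindbrain and forebrain samples do not overlap for Cacng3, Cacng8, Cacnb1 or Scn9a.

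Sodium channel α subunits of central neurons split by gene. Scn1a, the α subunit on which fast-spiking inhibitory neurons depend, was between 10.49 and 10.95 (median 10.75) in hindbrain, against 10.22 to 10.67 (median 10.33) in whole brain and 9.92 to 10.41 (median 10.21) in forebrain. Every hindbrain sample was above every forebrain sample, and the difference was 0.48 (SE 0.04, FDR 1.03e-13), or 1.39-fold. The other 3 central α subunits fell. Scn2a, the α subunit of unmyelinated axons and excitatory neurons, fell by 0.32 (SE 0.04, FDR 1.94e-09) and did so in 16 of 16 mice, and all 13 of its other clusters were lower, between -0.63 and -0.41. Scn8a, the α subunit of nodes of Ranvier and mature axon initial segments, fell by 0.27 (SE 0.04, FDR 9.65e-08), and Scn3a, an α subunit that is most abundant before birth, fell by 0.22 (SE 0.07, FDR 0.00376).

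Scn9a, an α subunit known from peripheral sensory and sympathetic neurons, had the largest increase. It was between 6.60 and 7.76 (median 7.30) in hindbrain, against 5.99 to 7.03 (median 6.46) in whole brain and 5.29 to 6.40 (median 5.76) in forebrain. The hindbrain samples were all above the forebrain samples, and the difference was 1.13 (SE 0.12, FDR 1.43e-10), or 2.19-fold. Its second cluster was higher by 0.61. On the 1.0ST arrays the fitted difference was 0.53 (FDR 0.0203), although the hindbrain samples, at 8.10 to 9.10, again lay above the forebrain samples, at 7.25 to 7.99.

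The α subunits of nociceptors had low signals. Scn10a was between 3.76 and 4.33 in hindbrain and between 4.21 and 4.71 in forebrain, with a difference of -0.17 (SE 0.07, FDR 0.0249). Without the 4 hindbrain samples with high cerebellar markers it was -0.13 (FDR 0.107) and no longer called. Scn11a was not called (0.08, FDR 0.0983). Of 4 markers of peripheral sensory neurons and Schwann cells, 3 were higher in hindbrain (Prph by 1.48, Pmp22 by 0.88, Avil by 0.20). Their mean per sample was 7.36 to 7.92 in hindbrain and 6.44 to 7.24 in forebrain, and their part in the Scn9a difference was not tested.

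Scn7a encodes Nax, a sodium sensor of circumventricular organs rather than a channel gated by voltage. It was between 7.23 and 8.05 (median 7.42) in hindbrain, against 6.99 to 7.56 (median 7.28) in whole brain and 6.30 to 7.48 (median 7.10) in forebrain, with overlapping groups. The difference was 0.27 (SE 0.08, FDR 0.00178), higher in 15 of 16 mice. On the 1.0ST arrays the difference of means was 0.33, but the fitted difference was -0.00016, so this call held on 1 format only. Myelin markers were higher in hindbrain for all 4 genes, with sample means of 10.97 to 11.32 against 10.00 to 10.55 in forebrain, and their part was not tested.

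Of the 3 sodium channel β subunits, Scn3b fell by 0.56 (SE 0.05, FDR 1.45e-13) and Scn2b by 0.16 (SE 0.03, FDR 9.97e-05). Scn3b was between 9.65 and 10.24 in hindbrain and between 10.55 and 10.92 in forebrain, without overlap. Scn4b, whose product carries the resurgent-current blocking peptide in cerebellar Purkinje cells, was not called (-0.10, SE 0.13, FDR 0.25). Its samples covered 8.43 to 9.32 in hindbrain and 8.25 to 9.44 in forebrain.

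Measured within each mouse, 4 genes were higher in hindbrain than in forebrain in 16 of 16 animals (Scn9a, Cacna2d2, Scn1a and Cacna2d4), a pattern seen for 12.2% of all transcripts. A further 10 were lower in 16 of 16, against 7.97% of all transcripts. All hindbrain samples lay above all forebrain samples for 3 channel genes (4.8% of all transcripts) and below them for 9 (4.24%). The 9 were Cacng3, Cacnb1, Cacng8, Cacna1e, Cacna1i, Cacna2d3, Cacna1h, Cacna2d1 and Scn3b.

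Genes that lie next to each other did not share a direction throughout. In the RefSeq gene order of chromosome 2, Scn3a and Scn2a are adjacent and both were lower, then, after 3 other protein-coding genes, Scn1a, Scn9a and Scn7a are adjacent and all were higher. On chromosome 6 the lower Cacna1c and the higher Cacna2d4 have 1 protein-coding gene between them. On chromosome 7 Cacng8, which fell, stands beside Cacng7, which was not called. The adjacent Cacng1, Cacng4 and Cacng5 on chromosome 11 were all not called.

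Related genes from lists outside the channel family were described in the same comparison. Of 18 presynaptic active zone partners of calcium channels, 14 were lower and 2 higher in hindbrain (median -0.39). Among them Stx1a, a plasma membrane SNARE protein, fell by 1.60, and Bsn, the scaffold Bassoon, by 1.20, while Syt2, a fast calcium sensor of release, was higher by 1.40. Of 10 AMPA receptor subunits and auxiliary proteins other than TARPs, 8 were lower and 1 higher (median -0.53). Gsg1l fell by 0.89 and Cnih3 by 0.80, and the subunit Gria4 was higher by 0.22. Of 16 sodium channel and axon initial segment partners, 9 were lower and 5 higher (median -0.13), with the ubiquitin ligase Nedd4l lower by 0.76 and the juxtaparanodal adhesion protein Cntn2 higher by 0.60.

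Calcium handling and pacemaker lists were more evenly divided. Of 14 calcium-binding proteins, 7 were lower and 6 higher, with Kcnip2 at -1.54 and Calb2 (calretinin) at 1.47. Of 14 genes for intracellular calcium release, pumps and exchangers, 7 were lower and 4 higher, with the sodium-calcium exchangers Slc8a2 at -1.73 and Slc8a3 at 0.60. Of 7 genes of the NALCN leak channel complex and the HCN pacemaker channels, 4 were higher and 2 lower (median 0.09). Among the higher were Hcn4 at 0.71 and Hcn2 at 0.46. Of 6 RGK and STAC regulators, which alter calcium channel trafficking, 2 were lower (Rem2 at -0.67, Stac2 at -0.25) and 1 higher (Rrad at 0.30).

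The intact hemisphere was compared with each dissected region, in comparisons that share samples with the one above and with each other. Against forebrain, whole brain was higher for 6 channel genes (8.48% of all transcripts) and lower for 7 (5.89%). Scn9a was higher by 0.58 (SE 0.09, FDR 1.31e-05) and Cacna2d2 by 0.36 (SE 0.06, FDR 6.02e-06), and Cacna1g, Scn1a, Cacng4 and Cacng7 by 0.11 to 0.19. Cacna1e (-0.21, SE 0.04, FDR 0.000191) and Cacng3 (-0.21, SE 0.05, FDR 0.00135) were lower, with Cacnb1, Cacna2d3, Scn3b, Cacna2d1 and Cacng8 between -0.17 and -0.13. On the 1.0ST arrays only Cacna2d2 was called, and without NOD mouse DD676 only 3 genes were called, all 3 higher.

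Hindbrain differed from whole brain for 25 genes, with 5 higher (26% of all transcripts) and 20 lower (17.4%). The higher genes were Scn9a (0.55, SE 0.10, FDR 7.83e-06), Cacna2d4 (0.35, SE 0.06, FDR 2.72e-06), Cacna2d2, Scn1a and Scn7a. The largest decreases were those of Cacng3 (-0.94, SE 0.05, FDR 6.02e-19) and Cacng8 (-0.74, SE 0.04, FDR 7.82e-19). Cacng4 was also lower (-0.16, FDR 0.00167), although it was not called between hindbrain and forebrain. The Scn9a difference was 0.27 (FDR 0.0667) by the 1.0ST arrays. Within single mice, the order hindbrain below whole brain below forebrain held in 16 of 16 for Cacng3 and Cacna2d1, and the opposite order held in 14 for Cacna2d2 and in 13 for Scn1a and Scn9a.

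Between NOD and B6 mice, the share of channel genes called in either direction was near that of all transcripts in forebrain and in hindbrain. By direction, the 5 called genes were all higher in NOD forebrain, while 6 of the 7 called in hindbrain were lower in NOD. Only 3 of the 5 and 3 of the 7 were called whichever mouse was left out. In whole brain the shares were near those of all transcripts, with 9.09% higher (against 9.27%) and 6.06% lower (against 8.7%). In forebrain 5 were higher in NOD (15.2% of the 33, against 8.98% of all transcripts) and 0 were lower (8.76%), and 6 of the 33 had an unadjusted p below 0.05 in limma. With 1.0ST arrays 12 were higher and 0 lower, with 5 called on both formats, but no share of all transcripts on that format is given to set beside these counts. Cacna2d4, the photoreceptor α2δ subunit, led. Its forebrain values were 5.83 to 6.15 (median 6.03) in NOD mice and 5.55 to 5.73 (median 5.64) in B6 mice (n = 8 each). The 8 NOD samples were all above the 8 B6 samples, a separation seen in this direction for 1.38% of all transcripts and in the opposite direction for 2.11%. The difference was 0.39 (SE 0.07, FDR 6.24e-05). Cacna2d4 was higher in NOD hindbrain too (0.38, SE 0.08, FDR 0.000174), at 6.32 to 6.92 in NOD against 6.00 to 6.53 in B6, and in whole brain (0.26, SE 0.07, FDR 0.00431). The forebrain difference was 0.11 (FDR 0.0162) on the 1.0ST arrays.

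**Figure D3:**
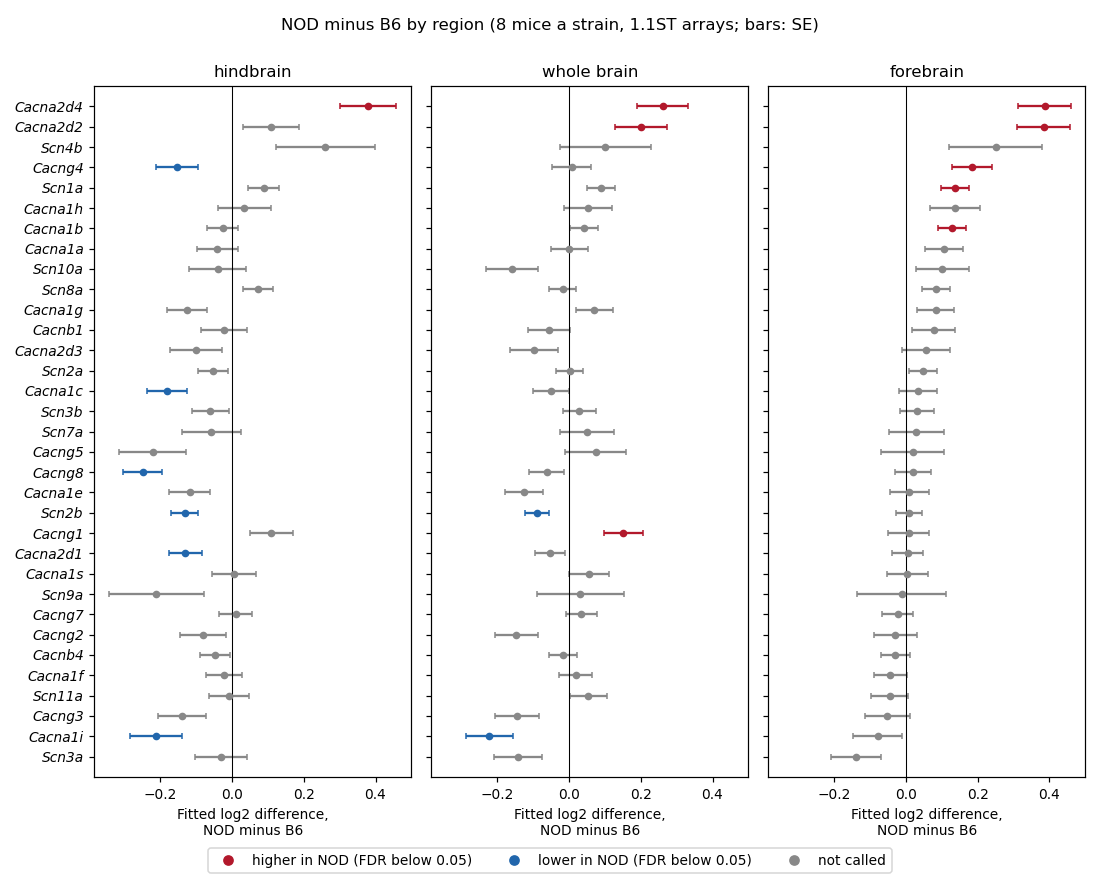
Fitted NOD minus B6 difference (log2, x axis) of the 33 channel genes with its SE, in hindbrain, whole brain and forebrain. Cacna2d4 is to the right of 0 in all 3 regions (0.38, 0.26 and 0.39), and Cacng8 is to the left in hindbrain (-0.25).

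The other 4 genes higher in NOD forebrain overlapped between strains. Cacna2d2 was between 8.57 and 8.89 (median 8.82) in NOD mice and between 8.10 and 9.04 (median 8.41) in B6 mice, where a single sample held the highest value of either strain. Its difference was 0.38 (SE 0.07, FDR 7.22e-05). Scn1a was between 10.20 and 10.41 (median 10.27) in NOD and between 9.92 and 10.28 (median 10.08) in B6, a difference of 0.14 (SE 0.04, FDR 0.00887). Cacng4, a TARP, was between 8.68 and 8.99 (median 8.80) in NOD and between 8.33 and 9.00 (median 8.58) in B6, a difference of 0.18 (SE 0.06, FDR 0.012). The N-type subunit Cacna1b followed, with 9.70 to 10.19 (median 10.07) in NOD, against 9.65 to 10.08 (median 9.98) in B6 and a difference of 0.13 (SE 0.04, FDR 0.0136). Without the surrogate variables described below, neither Cacng4 (FDR 0.106) nor Cacna1b (FDR 0.523) was called. Cacng4 was also not called without NOD mouse DD677, nor Cacna1b without B6 mouse BB686. The second Scn9a cluster was lower in NOD forebrain (-0.23), while the main Scn9a cluster was not called.

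Markers moved with strain in forebrain as well. Of 4 olfactory bulb markers, 3 were lower in NOD forebrain (median -0.73), with sample means of 5.44 to 7.17 in NOD and 6.16 to 7.67 in B6. The thalamic means were 7.76 to 8.91 in NOD forebrain and 7.63 to 8.23 in B6 forebrain. Their part in the strain differences was not tested.

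In hindbrain 1 gene was higher in NOD, again Cacna2d4 (11.8% of all transcripts), and 6 were lower (8.69%). Cacng8 was between 7.76 and 8.47 (median 8.20) in NOD and between 8.13 and 8.70 (median 8.61) in B6, with overlapping groups and a difference of -0.25 (SE 0.05, FDR 0.000363). Cacng4 was between 8.49 and 8.82 (median 8.66) in NOD and between 8.60 and 9.12 (median 8.90) in B6, a difference of -0.15 (FDR 0.0467), which was called in 8 of the 16 fits that left out 1 mouse and lay between -0.21 and -0.10 in them. Cacna1i (-0.21, FDR 0.0217), Cacna1c (-0.18, FDR 0.011), Scn2b (-0.13, FDR 0.00655) and Cacna2d1 (-0.13, FDR 0.0265) were lower as well. With 1.0ST arrays 4 genes were higher and 7 lower, with 6 called on both formats. There Cacna2d1 was not called (-0.0074, FDR 0.55), Scn9a (-0.38, FDR 0.00414) and Cacna1g were lower, and Scn8a, Scn1a and Cacng1 were higher. Without surrogate variables, Cacna1i (FDR 0.119), Cacna1c (FDR 0.0784) and Cacna2d1 (FDR 0.159) were not called. Without the 4 hindbrain samples with high cerebellar markers, Cacna1i was not called (FDR 0.0629). Without B6 mouse BB685, 4 genes were called, and 3 of the 7 were called whichever mouse was left out.

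Thalamic, glial and glutamate receptor genes also differed between the strains in hindbrain. Of 6 thalamic markers, 4 were lower in NOD hindbrain (median -0.36), with sample means of 9.30 to 9.66 in NOD and 9.60 to 10.41 in B6. Of the 10 AMPA receptor subunits and auxiliary proteins, 6 were lower in NOD hindbrain (median -0.21), among them the main subunit Gria1 (-0.21, FDR 0.000602) and the auxiliary proteins Shisa9 (-0.23, FDR 0.000116) and Cnih2 (-0.21, FDR 0.000695), and 0 were higher. All 5 microglial markers were higher in NOD hindbrain (median 0.21), and of 5 astrocyte markers 3 were higher, Gfap by 0.66, and 1 was lower. The part of these tissues and cell types in the channel gene differences was not tested.

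In whole brain 3 genes were higher in NOD (9.27% of all transcripts), namely Cacna2d4, Cacna2d2 (0.20, FDR 0.0311) and Cacng1 (0.15, FDR 0.0344). The 2 lower genes (8.7%) were Cacna1i (-0.22, FDR 0.00941) and Scn2b (-0.09, FDR 0.0481). Without NOD mouse DD656 or B6 mouse BB708, 2 genes were called. Cacna2d4 was called in all 16 fits that left out 1 mouse, Cacna1i in 14, Cacna2d2 in 10, Scn2b in 8 and Cacng1 in 7. With 1.0ST arrays 3 were higher and 1 lower, and 2 were called on both formats, Cacna2d4 and Cacna1i. Cacna2d2 (FDR 0.0803), Cacng1 (FDR 0.159) and Scn2b (FDR 0.19) were not called there.

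The strain difference itself was tested between hindbrain and forebrain. It was called for 0 genes in the positive direction (1.14% of all transcripts) and for 2 in the negative (1.14%), both of them TARPs. On the 1.0ST arrays 0 were positive and 3 negative, namely Cacng4, Cacna1g (-0.23, FDR 0.0142) and Scn2b (-0.15, FDR 0.0298). For Cacng4 the strain difference was -0.15 in hindbrain and 0.18 in forebrain, and the interaction was -0.34 (SE 0.08, FDR 0.00953), with -0.29 (FDR 0.00175) on the 1.0ST arrays. For Cacng8 it was -0.25 in hindbrain, while the forebrain samples were 9.23 to 9.50 (median 9.35) in NOD and 9.21 to 9.78 (median 9.39) in B6. The Cacng8 interaction was -0.27 (SE 0.07, FDR 0.0245). It was not called on the 1.0ST arrays (-0.16, FDR 0.0592), nor when the fit had no surrogate variables (FDR 0.303), nor without any 1 of mice BB687, DD658, DD659 and DD677. Of 6 thalamic markers, 5 had a negative interaction (median -0.70), and their part was not tested. Without the hindbrain samples with high cerebellar markers, 4 genes were called on the 1.1ST arrays. These were Cacna1c (-0.26, FDR 0.0243) and Scn2b (-0.16, FDR 0.0415) besides Cacng4 and Cacng8.

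**Figure D4:**
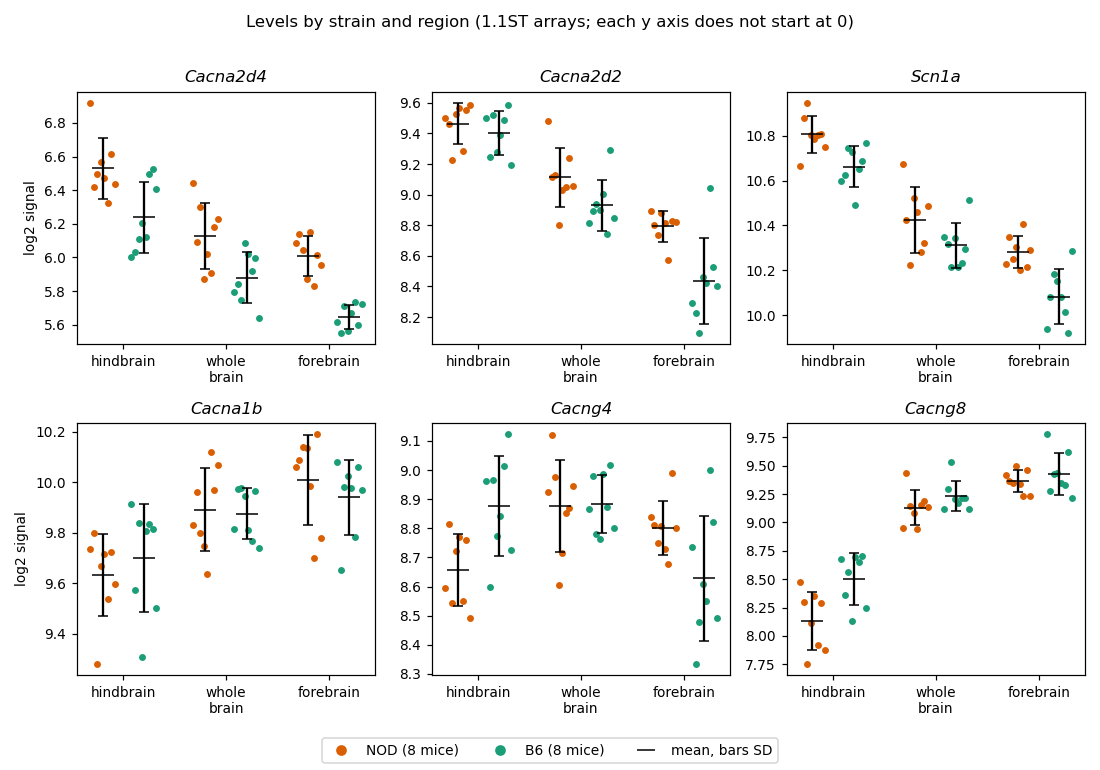
Normalised log2 signal (y axis, 1.1ST) of 6 channel genes by region and strain (x axis), NOD left of B6, with 1 point per mouse and the mean and SD of 8. In forebrain the NOD points of Cacna2d4 are all above the B6 points (5.83 to 6.15 against 5.55 to 5.73), and in hindbrain the NOD values of Cacng8 are lower (median 8.20 against 8.61).

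No channel gene was called between clozapine and vehicle mice 3 h after the injection. By limma 0 were higher (1.04% of all transcripts) and 0 lower (1.89%), 4 of the 33 had an unadjusted p below 0.05, and the lowest FDR was 0.0587. Neither the 1.0ST arrays nor a mixed model per transcript called any (0 each). Treatment was given per mouse, while the limma fit took 3 arrays of each mouse with a within-mouse correlation of 0.03. Its p-values and the shares of all transcripts can therefore overstate the evidence. The study, with its own model, reported no transcript for clozapine at an FDR of about 0.05. Scn1a was called when NOD mouse DD675 (FDR 0.0261), DD677 (0.0325) or B6 mouse BB701 (0.0326) was left out. The median difference of the 33 was 0.01. The lowest FDR was that of Scn1a, at -0.08 (SE 0.02). In hindbrain Scn1a was between 10.49 and 10.95 (median 10.74) in clozapine mice and between 10.63 and 10.88 (median 10.76) in vehicle mice. In whole brain it was 10.22 to 10.49 (median 10.31) with clozapine and 10.22 to 10.67 (median 10.37) with vehicle, and in forebrain 9.94 to 10.41 (median 10.18) with clozapine and 9.92 to 10.35 (median 10.22) with vehicle. The groups overlapped in every region, and the shift between medians was small beside the range within either group.

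The remaining genes with an unadjusted p below 0.05 were further from the threshold. Scn4b, at 0.19 (SE 0.08, FDR 0.199), had a hindbrain median of 8.86 with clozapine and 9.12 with vehicle, but forebrain medians of 9.08 and 8.75 in the same order. Scn10a stood at 0.11 (SE 0.05, FDR 0.208), with forebrain values of 4.21 to 4.71 with clozapine and 4.21 to 4.48 with vehicle. Scn3a had a difference of -0.09. Because all 4 hindbrain samples with high cerebellar markers came from clozapine mice, the comparison was repeated without them, and again 0 genes were called. An FDR above the threshold does not show that expression was the same.

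**Figure D5:**
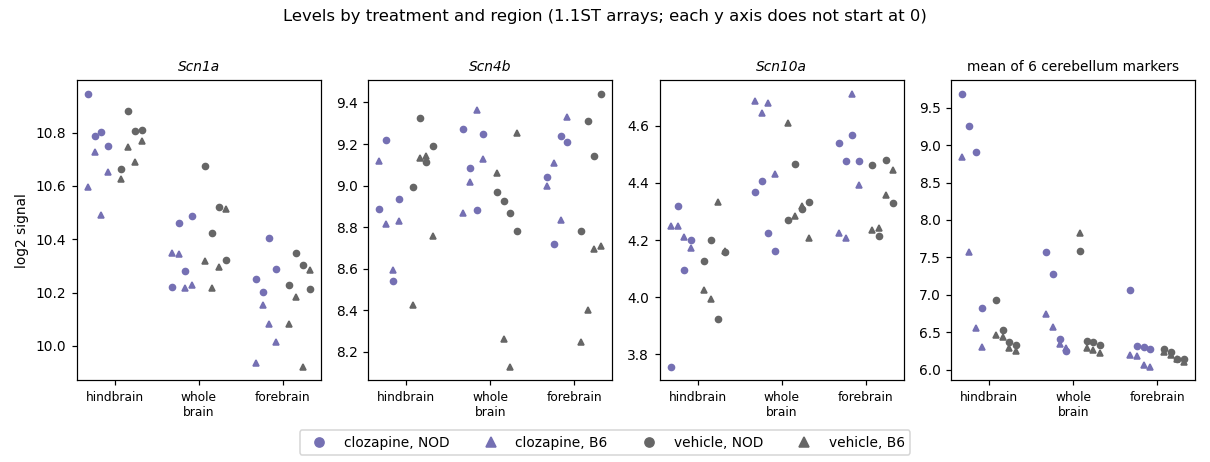
Normalised log2 signal (y axis, 1.1ST) of Scn1a, Scn4b and Scn10a and the mean of 6 cerebellar markers, by region and treatment (x axis), clozapine left of vehicle, with 1 point per mouse. The channel genes overlap between treatments in every region, whereas 4 hindbrain samples of clozapine mice have a cerebellar mean of 8.84 to 9.69.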

How the data were processed

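The deposited log2 values of 48 RNA samples on each of 2 array formats (1.1ST, and the same RNA on 1.0ST) were made by the authors with robust multiarray averaging (median polish, sketch-quantile normalisation; Affymetrix Expression Console 1.1 per the labels) and were used as given for 28310 annotated transcripts. Each transcript was fitted with limma 3.58.1 (R 4.3.3) with means for 6 strain and region groups, treatment, and 5 refined surrogate variables, each taken as the leading component of the 1000 transcripts that tracked a residual component best. These variables take up part of the region difference, so most called hindbrain minus forebrain differences were smaller as fitted than as differences of means (among the exceptions, Cacna1a). Processing batch and hemisphere were not in the labels used here and were not fitted. The mouse was a random block in each fit, since the 3 samples of an animal are paired (residual correlation 0.05 within mice and -0.0034 between). Replicates are separate mice, and the number of arrays limits precision. The FDR was the Benjamini-Hochberg value times the estimated share of unchanged transcripts, over all transcripts, and can fall below p. Values by sample are given for the called genes with the largest differences in each direction (up to 6 for hindbrain minus forebrain, 2 for the other region pairs, 5 for strain in forebrain, 3 for the interaction) and the 3 with the smallest p for clozapine. Members and lists were chosen with earlier results of these data known. Besides genes without an entry and those not chosen, 1 promoter is not reported here. Scripts were tested on simulated data.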

Additional observations from a re-analysis of the deposited data

Results flagged for a closer look

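In the groups of 8 mice of a strain and region, 11 of 96 groups (over 16 channel genes) had a highest or lowest sample set apart from the rest beyond Dixon's critical value for the gap over the range, which chance gives in about 1 in 20. In NOD mouse DD656 the whole brain had the lowest Cacng3, 10.22 against 10.70 for the next sample, and the lowest Cacna2d3, 9.82 against 10.21; its thalamic markers were high, as given above. The lowest Scn7a of NOD forebrain was 6.30, in DD676, against 7.05 for the next. In B6 hindbrain, Scn7a was highest in BB686 (8.05, next 7.62) and Cacna2d3 in BB685 (10.19, next 9.78). In B6 forebrain, Cacna2d2 was highest in BB703 (9.04, next 8.53), Scn10a in BB702 (4.71, next 4.44), and Cacna1e lowest in BB686 (10.45, next 10.68). In B6 whole brain the highest samples were BB707 for Cacna2d2 (9.29, next 9.00), BB687 for Cacng8 (9.53, next 9.30) and BB708 for Scn1a (10.51, next 10.35). The same sample was the extreme on the 1.0ST arrays in 9 of the 11 cases, and the exceptions were Scn10a and the low Scn7a. The 2 genes whose strain difference varied between hindbrain and forebrain, Cacng4 (-0.34) and Cacng8 (-0.27), were flagged because the difference between the regions was itself tested.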

How the results depend on the processing

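Over the genes given in full, 832 of 864 gene values under other settings kept direction and call, 26 lost the call, 4 gained it and 2 reversed. The reversals were Scn7a between hindbrain and forebrain on the 1.0ST arrays (-0.00016) and Scn4b for clozapine in hindbrain alone (-0.048). The hindbrain minus forebrain count of 24 genes stayed between 19 and 28, and was 23 with a fixed replicate block and 24 without any. Omitting mice gave 21 to 26, and 21 of the 24 genes were called each time. Centring each array on its median kept all 24, but 5 of 7 calls for strain in hindbrain and 4 of 5 in whole brain.

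Smaller comparisons moved more. Whole brain minus forebrain (13) gave 1 on 1.0ST, 22 with residual components as surrogate variables, 3 for transcripts with a mean above 5, 6 in B6 mice alone, and 3 (without DD676) to 15 without 1 mouse. NOD minus B6 in forebrain (5) gave 12 on 1.0ST, 3 without surrogate variables, and 4 to 7 without 1 mouse. In hindbrain (7) it gave 11 on 1.0ST, 13 with residual components, and 4 (without BB685) to 9. In whole brain (5) it gave 1 without surrogate variables, 3 by plain Benjamini-Hochberg adjustment, and 2 to 6, with 2 or 3 without BB686, BB702, BB708, DD656, DD676, DD677 or DD678. The interaction (2) gave 1 without surrogate variables, and 4 above a mean of 5, without the whole brain of DD656 or without the 4 hindbrain samples with high cerebellar markers (a choice made after seeing the data). Omitting mice gave 1 (BB687, DD658, DD659 or DD677) to 4 (DD675 or DD676). Clozapine (0) gave 1 with residual components, 1 with no replicate block, and 0 to 1 without 1 mouse, with Scn1a called without BB701, DD675 or DD677 (FDR 0.0326, 0.0261 and 0.0325). The cause of these shifts was not tested.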
